A study of Mus musculus with 12 samples.

Results

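The transcripts of 7 myosin light chain genes, Myl1, Myl2, Myl3, Myl4, Mylpf, Myl6b and Myl6, were followed through C2C12 myogenesis. They were taken by symbol from a count table of 21232 genes, in which all 7 were found. C2C12 is an established mouse myoblast line, given in the labels as strain C57BL/6, that stops dividing and fuses into myotubes when serum is lowered. There were 12 RNA sequencing libraries in 4 groups of 3, with replicates lettered A, B and C. The first group was differentiated for 48 h with TNF, an inflammatory cytokine, at 10 ng/ml. The second was differentiated for 48 h after siRNA silencing of Fbxl2, which encodes an F-box protein of a ubiquitin ligase. The third, named control, was differentiated for 48 h with neither, and the last was collected at 0 h as proliferating myoblasts in growth medium. The title of the series concerns TNF and Fbxl2 in myogenesis. Whether a non-targeting siRNA was given to the TNF and control cells is not in the labels. Nor do they name separate cultures behind the letters, so a p-value measures spread among libraries that could be technical repeats.

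A myosin motor is built from heavy chains, and the lever arm of each heavy chain carries an essential and a regulatory light chain. Essential chains stiffen the lever, while regulatory chains tune the motor and can be phosphorylated by myosin light chain kinases. Separate genes encode the light chains of fast, slow, embryonic and heart muscle and of non-muscle cells, and a switch from the non-muscle to the muscle set accompanies myotube formation.

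Of the 7 genes, 5 encode essential chains. Myl1 encodes the fast skeletal essential chain as a pair of isoforms from alternative promoters, which a count per gene cannot separate. Myl4 encodes the embryonic and atrial chain, Myl3 the ventricular and slow skeletal chain, and Myl6b a chain of slow muscle and non-muscle cells. Myl6 encodes the essential chain of non-muscle and smooth muscle myosin. The regulatory chains are Mylpf, the fast skeletal form, and Myl2, the slow skeletal and ventricular form. The genes lie on chromosomes 1 (Myl1, 66924295 to 66945404, minus strand), 5 (Myl2, 122100951 to 122113472, plus), 7 (Mylpf, 127208890 to 127214298, plus), 9 (Myl3, 110741861 to 110769798, plus) and 11 (Myl4, 104550663 to 104595753, plus) in GRCm38 with the GENCODE M21 annotation. Myl6b (128494157 to 128498685) and Myl6 (128490860 to 128494145) are neighbours on the minus strand of chromosome 10, with 11 bases between them and Myl6b upstream. Of the 7 genes, 6 had enough counts to be tested among 12736 genes, and Myl3 did not.

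The promoters of the genes whose levels set the pattern are shown first, since 4 of them moved together and Myl6, beside Myl6b, did not move with them. RefSeq (GRCm38.p6) gave 9 windows for the 7 genes, each from 250 bases before to 50 bases after an annotated start. The E-box CANNTG, the site bound by myogenic factors such as MyoD and myogenin, is in capitals, and both strands were searched.
Mylpf (chr7:127211358-127211657, plus strand): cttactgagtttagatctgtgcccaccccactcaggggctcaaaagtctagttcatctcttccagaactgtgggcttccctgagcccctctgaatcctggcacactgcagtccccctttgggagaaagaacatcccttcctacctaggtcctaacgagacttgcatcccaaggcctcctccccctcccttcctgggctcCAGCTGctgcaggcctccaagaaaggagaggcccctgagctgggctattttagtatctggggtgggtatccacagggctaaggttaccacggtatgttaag
Myl1 (chr1:66945007-66945306, minus strand): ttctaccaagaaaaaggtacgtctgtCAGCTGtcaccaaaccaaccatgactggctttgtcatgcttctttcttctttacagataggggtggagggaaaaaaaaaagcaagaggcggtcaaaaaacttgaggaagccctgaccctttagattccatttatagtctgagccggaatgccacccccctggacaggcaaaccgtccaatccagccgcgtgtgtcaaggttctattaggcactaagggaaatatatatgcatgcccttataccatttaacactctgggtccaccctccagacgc
Myl4 (chr11:104550413-104550712, plus strand): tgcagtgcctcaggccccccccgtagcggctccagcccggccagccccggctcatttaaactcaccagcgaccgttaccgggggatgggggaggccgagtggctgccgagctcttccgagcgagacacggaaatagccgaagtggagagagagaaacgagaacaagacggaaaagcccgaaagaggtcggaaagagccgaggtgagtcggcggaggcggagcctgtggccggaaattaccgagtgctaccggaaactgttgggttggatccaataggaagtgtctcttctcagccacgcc
Myl6b (chr10:128498636-128498935, minus strand): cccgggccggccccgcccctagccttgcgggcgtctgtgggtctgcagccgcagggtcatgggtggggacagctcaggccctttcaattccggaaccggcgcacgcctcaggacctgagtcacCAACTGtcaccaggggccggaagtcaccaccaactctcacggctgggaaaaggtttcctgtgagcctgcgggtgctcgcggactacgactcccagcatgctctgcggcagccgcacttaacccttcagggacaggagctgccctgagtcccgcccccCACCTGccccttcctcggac
Myl6 (chr10:128493837-128494136, minus strand): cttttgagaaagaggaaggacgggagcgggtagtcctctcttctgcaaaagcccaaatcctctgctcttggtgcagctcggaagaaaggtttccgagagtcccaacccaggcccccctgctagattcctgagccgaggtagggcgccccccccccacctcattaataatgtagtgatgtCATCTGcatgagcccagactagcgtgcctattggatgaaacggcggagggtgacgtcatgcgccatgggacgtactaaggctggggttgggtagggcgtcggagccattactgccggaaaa
Mylpf held an E-box that begins at position -51 from its start and Myl1 at position -224, both spelled CAGCTG. The Myl6b window held E-boxes at -127 and 31, and the Myl6 window shown held an E-box at -71. The Myl4 window, at the outer end of a locus with 8 annotated transcripts, held none. Any other start of Myl4, Myl1 or Myl2 was not covered, and the start used in these cells was not measured. Both Myl2 windows, 122092474 to 122092773 and 122092939 to 122093238, lay outside the Myl2 locus given above, which begins at 122100951. Matches of this kind are common, since 72.3% of 32851 promoter windows held CANNTG and 16.3% held CAGCTG, itself a match to the first. The GC box bound by SP1-type factors, GGGCGG, was found at -238 and 23 in Myl6b and at -26 in another Myl6 window, and 35.7% of all windows held it. The CArG box, bound by serum response factor, was found at -85 in Myl3 and at -50 in that other Myl6 window, against 1.63% of all windows. The MEF2 motif was in none of the 9 windows and in 3.19% of all. TATAAA was found in the Myl1 window at -95 and in a Myl2 window at -216, each on the opposite strand. Of all windows 13.6% held it. These are matches of letters in short windows, and binding was not measured here.

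Library totals ran from 26416978 to 32917763 counts, and levels are CPM, counts relative to library totals scaled by TMM, a correction for differences in RNA composition. The targeted gene checked the labels: Fbxl2 averaged 22.2 ± 1.52 CPM in Fbxl2 siRNA and 32.9 ± 1.30 CPM in control (SD, n = 3 each, edgeR quasi-likelihood adjusted p = 1.67e-07). It was thus at 67.5% of control after its siRNA. Fbxl2 was also lower with TNF than in control, at 28.9 ± 1.05 CPM (log2 fold change -0.19, edgeR adjusted p = 0.0137). Proliferation had 25.9 ± 1.71 CPM of Fbxl2. Nfkbia, an NF-kB target, averaged 148 ± 2.02 CPM with TNF and 23.5 ± 1.64 CPM in control (edgeR adjusted p = 2.89e-19). Skeletal muscle markers were present in all 4 groups, with summed levels of 1331 to 1362 CPM in TNF, 2083 to 2211 in Fbxl2 siRNA, 2502 to 2637 in control and 1751 to 1878 in proliferation. Most of each sum was Des and Chrna1, at 1095 ± 65.8 and 587 ± 5.44 CPM in proliferation. Of the 6 skeletal markers, TNF over proliferation called 2 higher and 4 lower, so the sum does not rank differentiation. Myog had 79.9 ± 10.6 CPM in TNF and 22.5 ± 2.31 CPM in proliferation. Ckm had 1001 counts over the 3 TNF libraries and 88 over the 3 proliferation libraries. Of 8 heart muscle markers, Hand2 was at 0 in all libraries and 6 stayed under 1 CPM in each. The others, in their highest groups, were Nppb at 9.10 ± 1.17 CPM in Fbxl2 siRNA and Myh6 at 4.38 ± 0.640 CPM in control. Of 4 adipocyte markers 3 stayed under 1 CPM, and among 5 macrophage markers 3 did, with Adgre1 at 0. The remaining adipocyte marker, Pparg, was highest in proliferation, at 13.2 ± 0.455 CPM. The remaining macrophage markers were highest at 1.58 ± 0.372 CPM in control for Cd68 and 1.12 ± 0.201 CPM in TNF for Csf1r.

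After 48 h of differentiation the muscle light chains were far higher than in myoblasts, while Myl6 did not pass the test. Mylpf, the fast regulatory chain, rose 41.4-fold, the embryonic essential chain Myl4 rose 59.1-fold and the fast essential chain Myl1 rose 14.3-fold. Myl6b rose 4.77-fold and was already detectable in myoblasts. Myl2 was called higher as well, at a low level, and Myl3 gave too few counts to test. In all 5 of 6 members tested were called higher and 0 lower at an edgeR adjusted p under 0.05, in a comparison where 38.4% of all genes tested were called higher and 38.9% lower.

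Mylpf stood at 588, 516 and 504 CPM in control replicates A, B and C, and at 15.1, 11.7 and 12.1 CPM in proliferating myoblasts (log2 fold change 5.37, SE 0.23, edgeR adjusted p = 2.27e-08). Myl4 stood at 126, 99.4 and 98.3 CPM in control and at 2.17, 1.56 and 1.74 CPM in proliferation (log2 fold change 5.88, SE 0.25, edgeR adjusted p = 1.38e-08). Replicate A was the highest control library for each gene, and no control library came near a proliferation library. Myl1 stood at 152, 132 and 132 CPM in control and at 10.7, 8.78 and 9.63 CPM in proliferation (log2 fold change 3.83, SE 0.19, edgeR adjusted p = 3.14e-08). Myl6b stood at 45.5, 36.9 and 35.6 CPM in control and at 9.54, 6.997 and 8.22 CPM in proliferation (log2 fold change 2.25, SE 0.16, edgeR adjusted p = 1.01e-07). Its lowest control library was still well above its highest proliferation library, so the groups did not overlap for any of these 4 genes. The share of all genes tested with no overlap was not computed, here or in the comparisons that follow. In bulk RNA, fewer cells that express a gene and less of its RNA per cell cannot be told apart, here and in every comparison that follows.

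Myl2, the slow regulatory chain, had 44, 20 and 24 counts in control and 0 counts in each proliferation library. Control averaged 0.959 ± 0.322 CPM, at least 9.31-fold higher than a proliferation level set at 3 counts in each library, the floor. It passed the filter through the groups in which it was high, so a difference was bound to appear, and without it 4 of 5 members tested were called higher. Myl3 had 4, 4 and 1 counts in control and none in proliferation. With no filter on low counts Myl3 was called higher (edgeR adjusted p = 0.00839), as with DESeq2 (adjusted p = 0.0402), at a level at or under the floor, for which no fold is given.

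Myl6, the non-muscle essential chain, stood at 786, 792 and 809 CPM in control and at 817, 834 and 841 CPM in proliferation. Each control library lay below each proliferation library, but the difference was small (log2 fold change -0.06, edgeR adjusted p = 0.232, with a 95% confidence interval of -0.16 to 0.04). Myl6b, its upstream neighbour on chromosome 10, differed between the same libraries by a log2 fold change of 2.25.

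**Figure D1:**
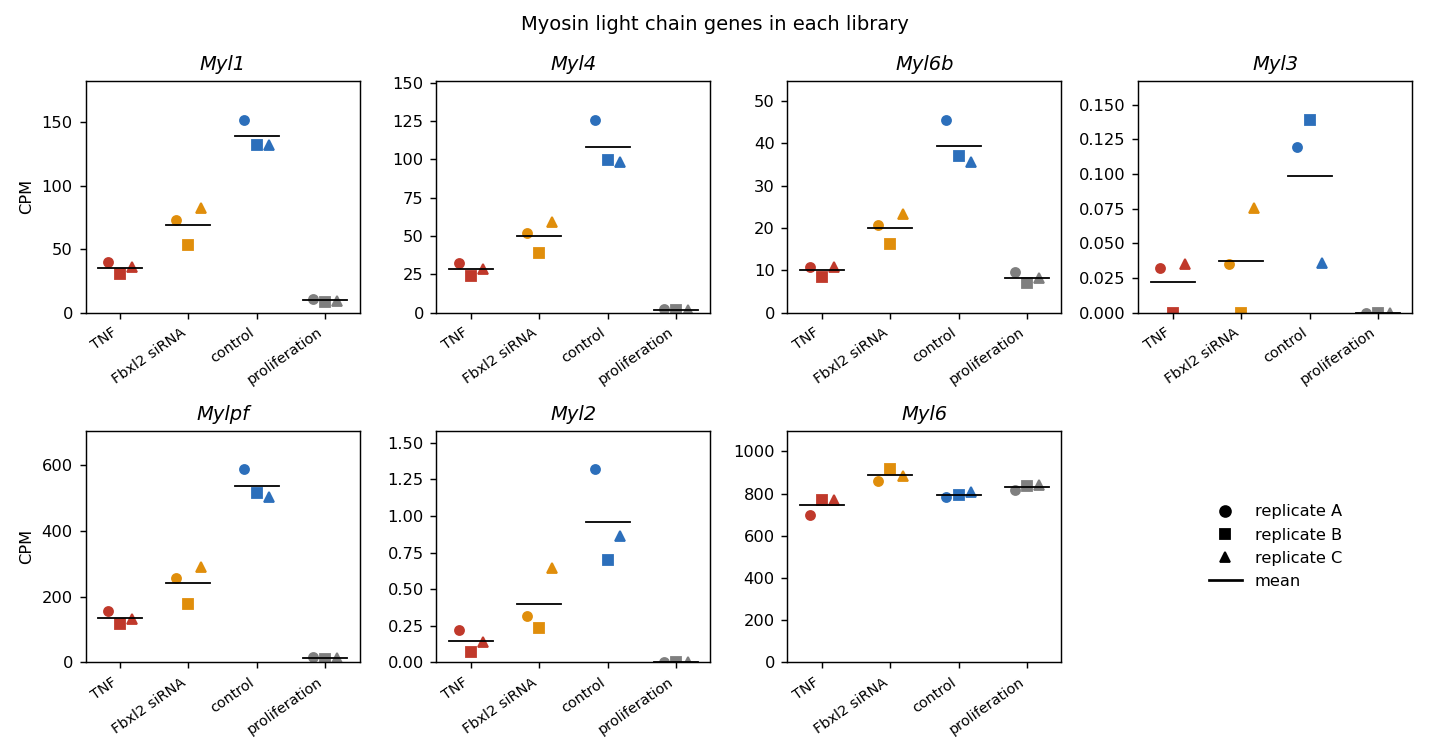
Levels in CPM (TMM-scaled) of the 7 light chain genes, with each library as a point, marker shape for the replicate letter and a bar for the mean of 3; each vertical axis starts at 0. Mylpf, Myl4, Myl1 and Myl6b follow a like profile over TNF, Fbxl2 siRNA and control, Myl6 lies between 700.2 and 915 CPM throughout, and Myl2 and Myl3 have few counts.

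With TNF, the 4 abundant muscle light chains stood at about the same fraction of control. Mylpf was at 25.4% of its control level, Myl6b at 25.5%, Myl1 at 25.6% and Myl4 at 26.2%. Myl2 was at 15.3%, with few counts. Members called lower numbered 5 of 6, and 0 were called higher, where 23.6% of all genes were called lower and 31.0% higher. Calls for all genes in this comparison were 56.8% higher with TMM and 46.5% higher with upper quartile scaling.

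Mylpf had 157, 118 and 134 CPM in TNF replicates A, B and C, against 588, 516 and 504 CPM in control (log2 fold change -1.98, SE 0.19, edgeR adjusted p = 1.73e-05). Myl4 had 32.2, 23.9 and 28.8 CPM in TNF, against 126, 99.4 and 98.3 CPM in control (log2 fold change -1.93, SE 0.17, edgeR adjusted p = 8.63e-06). Replicate B was the lowest TNF library and A the highest for both, and all TNF libraries were below all control libraries. Myl1 had 40.3, 30.6 and 35.7 CPM in TNF, against 152, 132 and 132 CPM in control (log2 fold change -1.96, SE 0.16, edgeR adjusted p = 4.12e-06). Myl6b had 10.9, 8.35 and 10.8 CPM in TNF, against 45.5, 36.9 and 35.6 CPM in control (log2 fold change -1.97, SE 0.16, edgeR adjusted p = 6.68e-07). The order of TNF libraries was the same for these 2 genes, with B lowest, and neither gene overlapped control.

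Myl2 had 7, 2 and 4 counts in TNF, against 44, 20 and 24 in control (log2 fold change -2.66, edgeR adjusted p = 4.37e-05, with a 95% confidence interval of -3.59 to -1.74). It entered the test through groups where its counts were high, control above all, so this call adds no support, and without Myl2 4 of 5 members tested were called lower. Its interval held the values of the other muscle chains. Myl3 had 1, 0 and 1 counts in TNF, against 4, 4 and 1 in control.

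Myl6 had 700.2, 771 and 769 CPM in TNF, against 786, 792 and 809 CPM in control. Its TNF libraries were all below its control libraries, and its log2 fold change was -0.09 (SE 0.05, edgeR adjusted p = 0.107). It was called lower with upper quartile scaling (log2 fold change -0.14, adjusted p = 0.0175), with DESeq2 (adjusted p = 0.0341) and with a fit to these 2 groups alone (adjusted p = 0.0112). In the authors' deposited table for this contrast, Myl6 had a log2 fold change of -0.12 with an adjusted p of 0.00945. Every alternative kept the sign, and the log2 fold change ranged from -0.14 to -0.05.

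After Fbxl2 siRNA, the 4 abundant muscle chains were at 45.2% to 50.9% of control, and Myl6 was above control. Myl6b was at 50.9% of control, Myl1 at 50.02%, Myl4 at 46.3%, Mylpf at 45.2% and Myl2 at 41.7%. Of 6 members tested, 5 were called lower and 1 higher, where 29.8% of all genes were called lower and 34.1% higher. The comparisons of TNF and of Fbxl2 siRNA with control share the control libraries, so their values are set side by side and not related to each other.

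Mylpf had 258, 179 and 291 CPM in Fbxl2 siRNA replicates A, B and C, against 588, 516 and 504 CPM in control (log2 fold change -1.15, SE 0.18, edgeR adjusted p = 0.000458). Myl4 had 52.2, 38.8 and 58.8 CPM in Fbxl2 siRNA, against 126, 99.4 and 98.3 CPM in control (log2 fold change -1.11, SE 0.16, edgeR adjusted p = 0.000246). Among the siRNA libraries B was lowest and C highest, and none reached control. Myl1 had 72.7, 53.3 and 82.3 CPM in Fbxl2 siRNA, against 152, 132 and 132 CPM in control (log2 fold change -1.002, SE 0.15, edgeR adjusted p = 0.000288). Myl6b had 20.7, 16.2 and 23.2 CPM in Fbxl2 siRNA, against 45.5, 36.9 and 35.6 CPM in control (log2 fold change -0.98, SE 0.15, edgeR adjusted p = 0.000106). The order of the siRNA libraries, B below A below C, was the same for Mylpf, Myl4, Myl1, Myl6b and Myl2. In each of the 4 groups, replicate A lay above and replicate B below its group's mean log2 CPM for Mylpf, Myl4, Myl1 and Myl6b. The titles number the A libraries 1 to 4 and the B and C libraries 10 to 17, and whether that marks a batch is not in the labels. From B and C alone, the log2 fold change of TNF over control was -2.02 for Mylpf, -1.91 for Myl4, -1.99 for Myl1 and -1.91 for Myl6b, and that of Fbxl2 siRNA over control was -1.12 for Mylpf, -1.02 for Myl4, -0.97 for Myl1 and -0.88 for Myl6b, all called. The 95% confidence intervals of the 4 log2 fold changes overlapped.

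Myl2 had 9, 7 and 17 counts in Fbxl2 siRNA, against 44, 20 and 24 in control (log2 fold change -1.29, SE 0.36, edgeR adjusted p = 0.00445), with the same limit from the filter. That call ended once every letter A library was left out (log2 fold change -0.85, adjusted p = 0.102). Myl6 had 859, 915 and 885 CPM in Fbxl2 siRNA, against 786, 792 and 809 CPM in control, with no overlap. It was higher by 1.11-fold (log2 fold change 0.16, SE 0.05, edgeR adjusted p = 0.00658), and this call ended once every letter C library was left out (adjusted p = 0.102), with the log2 fold change still at 0.16. Across alternatives the log2 fold change of Myl6 stayed between 0.12 and 0.18.

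**Figure D2:**
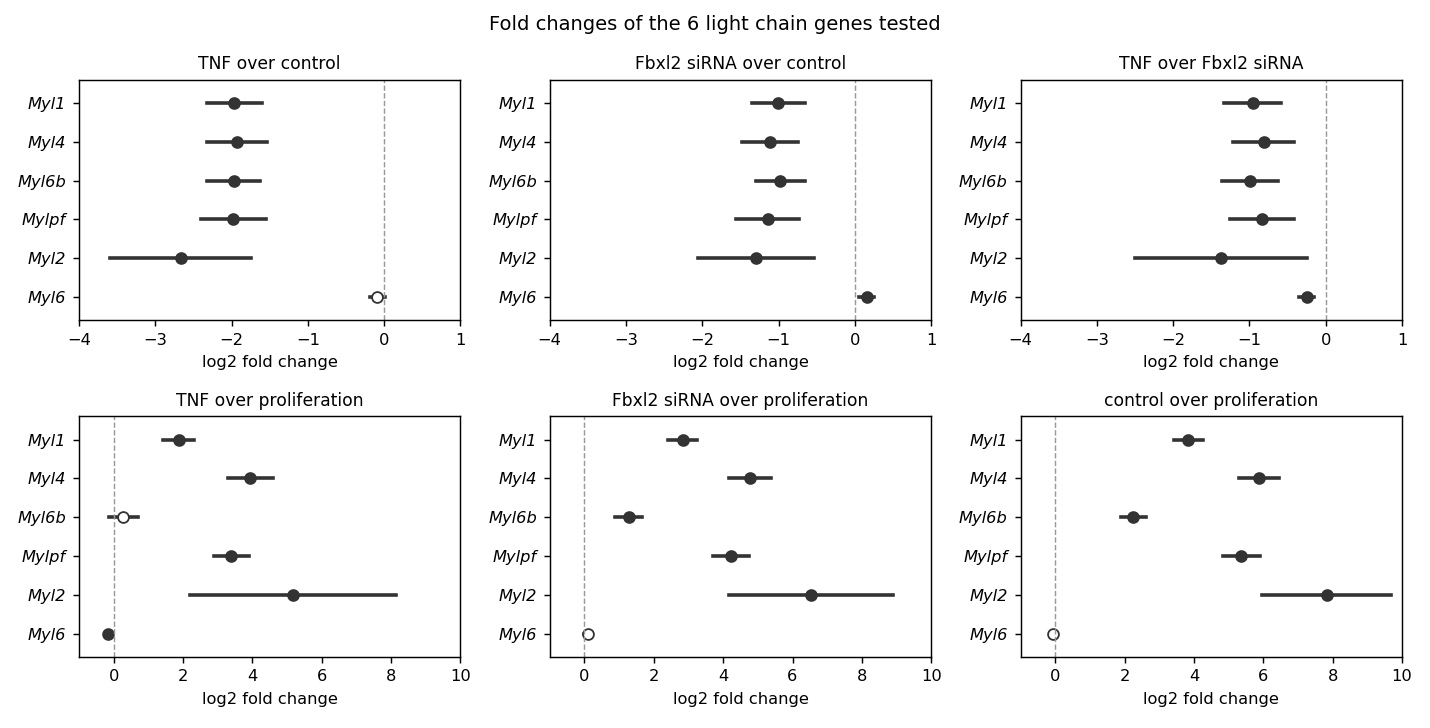
Log2 fold changes of the 6 light chain genes tested in 6 comparisons, as points with 95% confidence intervals, filled where the edgeR adjusted p was under 0.05; Myl2 had no count in proliferation, so its fitted values in the lower row depend on the prior count. With TNF over control Myl1, Myl4, Myl6b and Mylpf lie between -1.98 and -1.93, with Fbxl2 siRNA over control between -1.15 and -0.98, and over proliferation they spread out.

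Set against each other, the TNF libraries had less of Mylpf, Myl4, Myl1 and Myl6b than the Fbxl2 siRNA libraries. All 6 members tested were called lower, Myl2 and Myl6 included, where 30.6% of all genes were called lower and 29.9% higher. Of all calls in this comparison 49.5% were higher with TMM and 39.7% with upper quartile scaling. Myl3 was not tested and had 1, 0 and 1 counts in TNF and 1, 0 and 2 in Fbxl2 siRNA, which overlap. The log2 fold change of TNF over Fbxl2 siRNA was -0.96 for Myl1 (SE 0.16, edgeR adjusted p = 0.000669) and -0.99 for Myl6b (SE 0.17, edgeR adjusted p = 0.000326). It was -0.81 for Myl4 (SE 0.18, edgeR adjusted p = 0.00315) and -0.83 for Mylpf (SE 0.18, edgeR adjusted p = 0.00378). In none of these genes did a TNF library reach the lowest siRNA library, which was replicate B each time. The call for Mylpf ended once every letter C library was left out (log2 fold change -0.66, adjusted p = 0.0648).

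Myl2 was lower in TNF by a log2 fold change of -1.37 (SE 0.54, edgeR adjusted p = 0.0340). That call rested on few counts and ended with DESeq2 (adjusted p = 0.0610), without TNF replicate B (0.123) or C (0.0798), without Fbxl2 siRNA replicate C (0.219) and without all libraries of letter C (0.340). Myl6 differed in the same direction by less, with a log2 fold change of -0.25 (SE 0.05, edgeR adjusted p = 0.000126), and was called under all alternatives run. Myl6 at 747 ± 40.4 CPM in TNF and 886 ± 28.0 CPM in Fbxl2 siRNA (SD, n = 3 each) thus had its lowest and highest group means in these 2 groups.

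Both treated groups stayed above proliferation for Myl1, Myl4 and Mylpf. Over proliferation, 4 of 6 members were called higher and 1 lower in TNF, where 36.3% of all genes were higher and 36.5% lower. In Fbxl2 siRNA 5 of 6 were called higher and 0 lower, where 30.9% of all genes were higher and 31.1% lower. Myl4 was still 15.5-fold above proliferation in TNF and 27.4-fold in Fbxl2 siRNA, and Mylpf 10.5-fold in TNF and 18.7-fold in Fbxl2 siRNA. Myl1 was 3.66-fold above proliferation in TNF and 7.15-fold in Fbxl2 siRNA. Myl2, with 0 counts in proliferation, is among those called higher, but it entered the test through the groups where it is high. Its mean was at least 1.42-fold above the floor of 3 counts in TNF, where replicate B had 2 counts, and at least 3.89-fold in Fbxl2 siRNA.

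Myl6b was the exception. It stood at 10.9, 8.35 and 10.8 CPM in TNF, against 9.54, 6.997 and 8.22 CPM in proliferation, and these libraries overlapped (log2 fold change 0.28, edgeR adjusted p = 0.195, with a 95% confidence interval of -0.13 to 0.69). It was called higher with a fit to these 2 groups alone (adjusted p = 0.0488), and all alternatives gave a positive log2 fold change, between 0.18 and 0.40. In Fbxl2 siRNA it was 2.43-fold above proliferation (edgeR adjusted p = 5.22e-05). As a share of the difference between the control and proliferation means, TNF libraries held 5.73% of the Myl6b rise, 20.0% of the Myl1 rise, 23.6% of the Mylpf rise and 25.0% of the Myl4 rise. The Fbxl2 siRNA libraries held 37.9% of the rise for Myl6b, 46.3% for Myl1, 43.9% for Mylpf and 45.4% for Myl4. These shares have the same control mean in common and were not tested. Myl6 was lower in TNF than in proliferation (log2 fold change -0.15, SE 0.05, edgeR adjusted p = 0.00607), a call that ended once every letter C library was left out (adjusted p = 0.0791), though the log2 fold change was then -0.17. In Fbxl2 siRNA its log2 fold change over proliferation was 0.09 (edgeR adjusted p = 0.0888), and upper quartile scaling called it higher (adjusted p = 0.0390).

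Ratios between light chains within a library do not depend on library scaling, and they separated the differentiated groups from myoblasts. Mylpf had 13.6 ± 1.13 counts for each Myl6b count in TNF, 12.003 ± 0.842 in Fbxl2 siRNA, 13.7 ± 0.679 in control and 1.57 ± 0.102 in proliferation (SD, n = 3). For each Myl1 count, Mylpf had 3.83 ± 0.0781 counts in TNF, 3.48 ± 0.107 in Fbxl2 siRNA, 3.86 ± 0.0482 in control and 1.33 ± 0.0792 in proliferation. TNF and control overlapped in each ratio, although the genes themselves stood at 25.4% to 26.2% of control in TNF. Myl4 had 0.795 ± 0.0144 counts per Myl1 count in TNF, 0.721 ± 0.00728 in Fbxl2 siRNA, 0.775 ± 0.0464 in control and 0.187 ± 0.0134 in proliferation. The ratio of Mylpf to Myl4 ran the other way and was 4.82 ± 0.167 in TNF, 4.83 ± 0.194 in Fbxl2 siRNA, 5.00 ± 0.282 in control and 7.12 ± 0.306 in proliferation.

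Over 30 comparisons of 5 such ratios, the smallest p that 3 against 3 libraries allow is 0.1, by a two-sided exact permutation test, which is 0.15 after Benjamini-Hochberg adjustment, so no ratio could pass 0.05. All 15 comparisons with proliferation had no overlap. The 5 ratios have genes in common, so these are not separate results, and ratios of other genes were not examined. TNF against control gave exact permutation p of 0.4 to 1, with differences in log2 ratio of -0.05 to 0.04. Fbxl2 siRNA against control had no overlap for Mylpf over Myl1 (difference in log2 ratio -0.15), Myl4 over Myl1 (-0.10) and Mylpf over Myl6b (-0.19), each with an exact permutation p of 0.1.

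**Figure D3:**
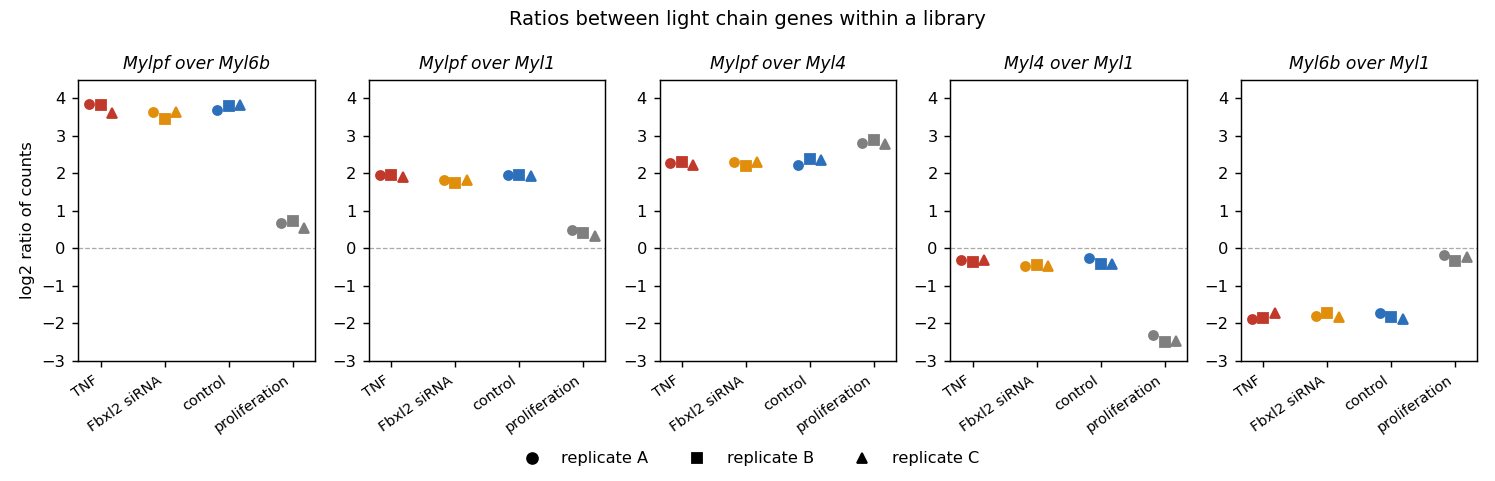
Log2 ratio of the counts of a pair of light chain genes within a library, with each library as a point by group and replicate letter, and 0 meaning equal counts. TNF, Fbxl2 siRNA and control lie close together in all 5 ratios, and proliferation lies apart from them.

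The make-up of the light chain pools was compared per kilobase of exon. Among the essential chains, Myl6 was 89.1% ± 1.83 of the pool in TNF, 83.5% ± 3.13 in Fbxl2 siRNA, 69.2% ± 2.46 in control and 96.5% ± 0.478 in proliferation (SD, n = 3). Myl1 was 6.54% ± 1.10 of that pool in TNF, 10.0% ± 1.99 in Fbxl2 siRNA, 18.5% ± 1.04 in control and 1.73% ± 0.186 in proliferation. The muscle chains thus made up the largest part in control and the smallest in myoblasts, with no overlap between any 2 groups in the share of Myl6. Myl4 held 2.33% ± 0.411 in TNF, 3.23% ± 0.612 in Fbxl2 siRNA, 6.43% ± 0.757 in control and 0.146% ± 0.0262 in proliferation. Myl6b held 2.07% ± 0.334 in TNF, 3.25% ± 0.528 in Fbxl2 siRNA, 5.89% ± 0.658 in control and 1.65% ± 0.266 in proliferation. Myl3 had at most 0.0193% in any library.

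Among the regulatory chains, Mylpf was 18.5% ± 2.40 of the pool in TNF, 30.2% ± 5.59 in Fbxl2 siRNA, 47.1% ± 1.58 in control and 2.88% ± 0.411 in proliferation (SD, n = 3). The rest was almost all Myl12a, Myl12b and Myl9, which encode the regulatory chains of non-muscle and smooth muscle myosin. Myl9 alone was 27.7% ± 0.749 of the pool in TNF, 22.0% ± 1.68 in Fbxl2 siRNA, 17.6% ± 0.326 in control and 15.1% ± 0.537 in proliferation. Myl12a and Myl12b are similar copies whose annotated loci overlap on chromosome 17, so reads could be divided between them and their single values are uncertain. Over 30 comparisons of shares, 28 had no overlap between the groups and an exact permutation p of 0.1, the smallest possible, or 0.107 after Benjamini-Hochberg adjustment. The others were Myl4 in TNF against Fbxl2 siRNA and Myl6b in TNF against proliferation. Shares within a pool move against each other by construction, so the 30 are not separate results. How often other genes show no overlap was not computed.

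These shares depend on the transcript length assumed. With the shortest principal transcript of each gene in place of the union of its exons, Mylpf was 9.34% of the regulatory pool in TNF, 16.1% in Fbxl2 siRNA, 28.7% in control and 1.12% in proliferation. The order of the groups was the same. The order of genes was not: per kilobase of exon union, Mylpf at 505 ± 42.8 CPM per kb was above Myl6 at 250 ± 3.72 in control, while with principal transcripts Mylpf at 700 ± 59.3 was below Myl6 at 1197 ± 17.8. Myl4 at 23.3 ± 3.36 and Myl6b at 21.3 ± 2.93 CPM per kb of exon union were close in control. With principal transcripts they were apart, at 123 ± 17.7 for Myl4 and 38.3 ± 5.27 for Myl6b. Myl1, at 66.9 ± 5.52 CPM per kb of exon union, lay between Myl6 and Myl4.

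**Figure D4:**
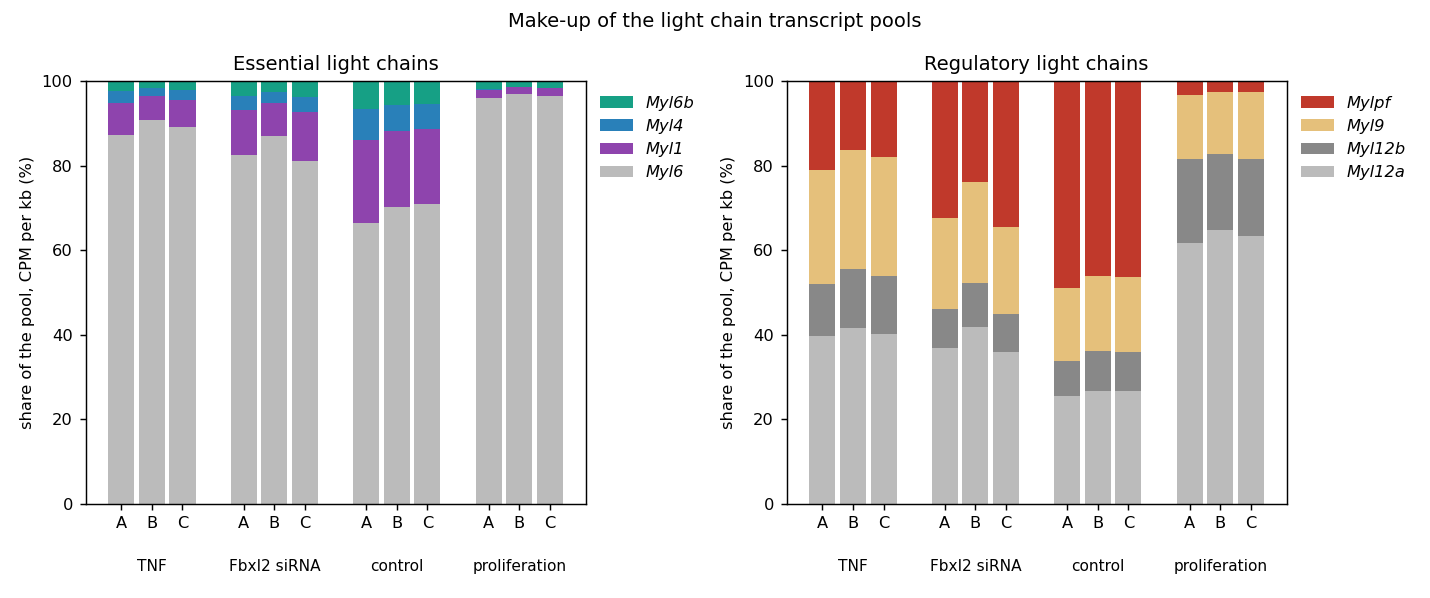
Share of each gene in the essential and the regulatory light chain pool of each library, in percent of summed CPM per kilobase of exon union; bars start at 0 and letters are replicates. The muscle genes, stacked at the top, take the largest part in control and the smallest in proliferation, and Myl2, Myl3, Myl7 and Myl10 are too low to be seen.

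Other light chain genes, outside the 7, were set beside them. Of 5 listed, Myl9, Myl12a and Myl12b were tested, and Myl7 and Myl10 were not. With TNF over control 0 of 3 were called in either direction, where 31.0% of all genes were called higher and 23.6% lower. Their log2 fold changes were 0.03 for Myl9 (edgeR adjusted p = 0.597), -0.01 for Myl12a and -0.04 for Myl12b (edgeR adjusted p = 0.502). After Fbxl2 siRNA Myl12b (-0.41, edgeR adjusted p = 3.45e-07) and Myl9 (-0.19, edgeR adjusted p = 0.000742) were lower than in control. In control over proliferation 2 of 3 were higher, where 38.4% of all genes were, led by Myl9 with a log2 fold change of 1.55. Smooth muscle markers, of which 6 of 7 were tested, are given beside Myl9: their summed level was 4297 to 4453 CPM in TNF, 2028 to 2152 in Fbxl2 siRNA, 3625 to 3812 in control and 797 to 804 in proliferation. Most of that sum was Acta2. None of the 7 smooth muscle markers was at 0 in all libraries, Myh11 stayed under 1 CPM, and the part of such cells in the result was not tested. Fibroblast markers summed to 5348 to 5548 CPM in TNF, 4281 to 4433 in Fbxl2 siRNA, 5239 to 5355 in control and 1903 to 2350 in proliferation. That sum is mostly Col1a1 and Col1a2, and single markers differed. Of 6 tested, 2 were higher and 3 lower with TNF over control, against 31.0% and 23.6% of all genes. Dcn had 119 ± 4.88 CPM in TNF and 488 ± 16.1 CPM in control, and Lum was lower too, while Pdgfra had 32.4 ± 2.74 CPM in TNF and 15.8 ± 0.839 CPM in control.

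The heavy chains that carry these light chains moved with the muscle set. All 8 sarcomeric heavy chain genes tested, of 10 listed, were higher in control than in proliferation, lower with TNF than in control and lower after Fbxl2 siRNA than in control, against 38.4%, 23.6% and 29.8% of all genes in these directions. Over the 3 proliferation libraries Myh2 had 7 counts, Myh4 5, Myh6 11, Myh7b 6 and Myh8 13. These genes passed the filter through groups in which they were high, so their calls in control over proliferation add no support. Their median log2 fold change was -2.17 with TNF over control and -1.35 with Fbxl2 siRNA over control, beside medians of 0.03 over all genes tested in each. Myh8, the perinatal heavy chain, had 3.08 ± 0.601 CPM in TNF and 22.5 ± 7.04 CPM in control (log2 fold change -2.87). Myh7, the slow and beta-cardiac heavy chain, had 4.47 ± 1.78 CPM in Fbxl2 siRNA and 26.9 ± 6.06 CPM in control (log2 fold change -2.61). In TNF over Fbxl2 siRNA, where 30.6% of all genes were called lower, 5 of the 8 were. Myh7 was not among them, with a log2 fold change of 0.08 (edgeR adjusted p = 0.862), nor were Myh6 (-0.39) and Myh4 (0.52). Of 3 non-muscle and smooth muscle heavy chain genes tested, TNF over control called 2 lower, against 23.6% of all genes. These were Myh14 by -2.42 and Myh10 by -0.23, and Myh9, the most abundant, had -0.08. Myh14 was low throughout, with 13 counts over the 3 TNF libraries and 74 over the 3 control libraries.

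Listed genes for light chain kinases, the light chain phosphatase and related proteins were mixed. Of 10 tested, 1 was higher and 5 were lower with TNF over control, 3 higher and 5 lower with Fbxl2 siRNA over control, and 5 higher and 4 lower in control over proliferation. Over all genes the shares were 31.0% higher and 23.6% lower with TNF, 34.1% and 29.8% with Fbxl2 siRNA, and 38.4% and 38.9% in control over proliferation, so the last count is near the background. Mylk, which encodes the smooth muscle and non-muscle light chain kinase, had 21.5 ± 1.58 CPM in TNF and 16.6 ± 1.06 CPM in control (log2 fold change 0.37, edgeR adjusted p = 0.000149). Mylk2, the skeletal muscle kinase, had 2.90 ± 0.236 CPM in TNF and 5.86 ± 0.689 CPM in control (log2 fold change -1.02, edgeR adjusted p = 8.59e-07). The smooth muscle kinase was thus higher with TNF and the skeletal kinase lower. Proliferating myoblasts had more Mylk2 than control, 8.86 ± 0.233 CPM, and less Mylk, 3.04 ± 0.233 CPM. The log2 fold change of control over proliferation was -0.60 for Mylk2 and 2.45 for Mylk. After Fbxl2 siRNA both were lower than in control, by log2 fold changes of -1.07 for Mylk and -0.75 for Mylk2. Mylk4, another member of the kinase family, was lower in both treated groups, by -1.44 in TNF and -1.67 in Fbxl2 siRNA. Rock2, a kinase that inhibits the light chain phosphatase, was higher after Fbxl2 siRNA by 0.32.

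Genes for thick filament assembly and the troponins followed the muscle light chains. Of 8 assembly genes tested, 8 were higher in control than in proliferation, 8 lower with TNF and 7 lower with Fbxl2 siRNA than in control, where 38.4% of all genes were higher in control than in proliferation, 23.6% lower with TNF and 29.8% lower with Fbxl2 siRNA. Over the 3 proliferation libraries Mybpc2 had 0 counts and Mybpc1 3. Both passed the filter through groups in which they were high, so their calls in control over proliferation add no support. The exception with Fbxl2 siRNA was Mybpc1, the slow myosin-binding protein C, which stood at 1.32 ± 0.469 CPM in Fbxl2 siRNA and 1.57 ± 0.345 CPM in control (log2 fold change -0.26, edgeR adjusted p = 0.410). Mybpc1 had the largest fall of this list with TNF (-3.25), but with only 14 counts over the 3 TNF libraries. All 3 slow troponin genes and all 3 fast troponin genes were lower in both treated groups than in control. Median log2 fold changes with TNF over control were -1.93 for slow and -2.03 for fast troponins, and with Fbxl2 siRNA over control -1.21 for slow and -0.83 for fast troponins. The difference between slow and fast was not tested.

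Transcription factors known to act on light chain genes were lower in most cases. Of 11 tested, 9 were lower and 0 higher with TNF over control, and 9 lower and 1 higher with Fbxl2 siRNA over control, where all genes were 23.6% lower and 31.0% higher with TNF, and 29.8% lower and 34.1% higher with Fbxl2 siRNA. Myog, which encodes myogenin, had 79.9 ± 10.6 CPM in TNF, 104 ± 23.9 in Fbxl2 siRNA and 302 ± 22.0 in control, with log2 fold changes of -1.92 in TNF and -1.54 in Fbxl2 siRNA over control. Mef2c, a MEF2 factor, had 6.81 ± 1.56 CPM in TNF, 13.7 ± 1.74 in Fbxl2 siRNA and 25.8 ± 4.46 in control, with -1.92 in TNF and -0.92 in Fbxl2 siRNA. Tead4 was lower by -1.47 in TNF and Myod1 by -1.12. Myf5 was the gene called higher after Fbxl2 siRNA, by 0.48. In TNF over Fbxl2 siRNA Mef2c was lower (-0.999, edgeR adjusted p = 0.000246), and Myog had a log2 fold change of -0.38 (edgeR adjusted p = 0.0824).

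**Figure D5:**
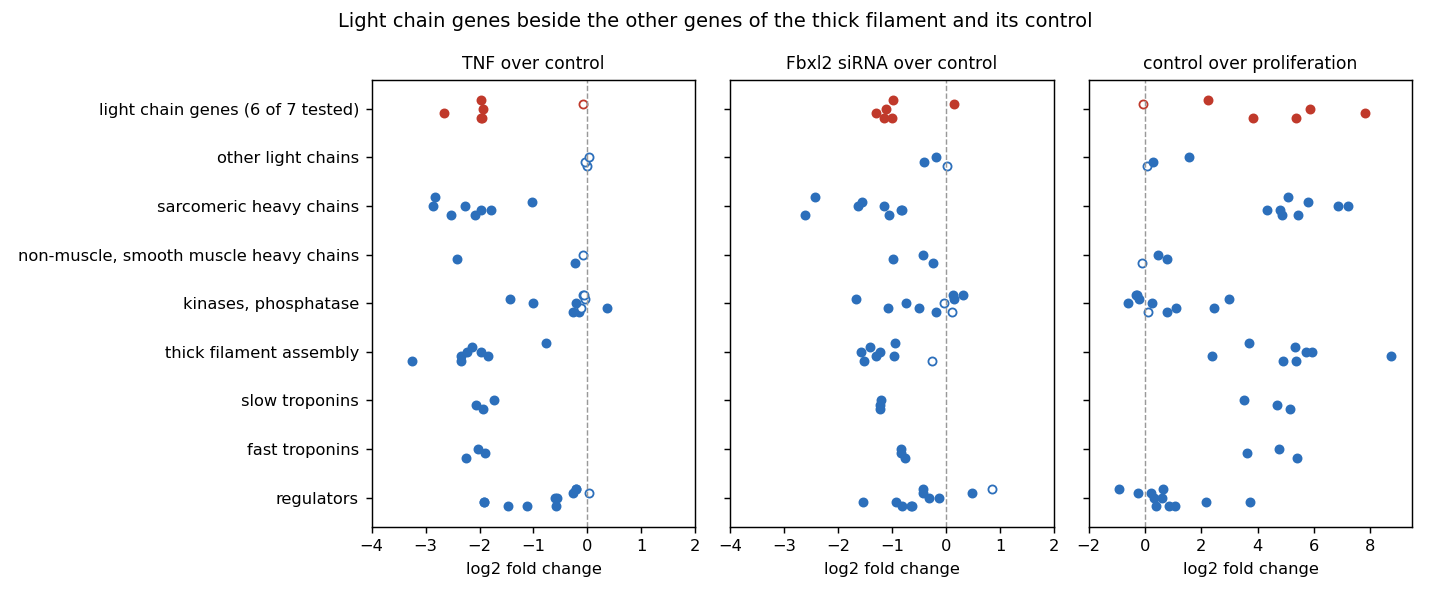
Log2 fold changes of the light chain genes (red) and of listed genes of the thick filament, its kinases, the troponins and transcription factors (blue), filled where the edgeR adjusted p was under 0.05. In both treated groups over control, the sarcomeric heavy chains, assembly genes and troponins lie left of 0 with the muscle light chains, while the other light chains lie near 0 with TNF.

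Across the 12 libraries, the muscle light chains followed each other closely and Myl6 did not follow them. Pearson's r of log2 CPM was 0.9987 for Myl4 and Mylpf, 0.9870 for Myl1 and Mylpf and 0.8509 for Myl6b and Mylpf, while Myl6 had values from -0.1161 to 0.1028 with the 5 others. These values rest on 4 groups and share the libraries' scaling, so they describe this set only. The tested genes nearest to Mylpf were Tnnc1 (0.9994), Myl4 and Itgb1bp2. Nearest to Myl4 was Acta1, skeletal actin (0.9995), then Mybph. Nearest to Myl1 were Hfe2 (0.9985), Klhl41 and Tnni2, the fast troponin I gene. Nearest to Myl6b were Ldb3 (0.9949), a Z-disc protein gene, Stac3 and St3gal5, and nearest to Myl2 were Hspb7 (0.9869) and Atp2a1. Myl6 had lower values with its nearest genes, Ndufa7 (0.9535), Arhgap22 and Ercc1.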

How the data were processed

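Whole-number read counts per gene symbol were deposited by the authors for 12 libraries. The submitters' processing notes name CASAVA, DESeq2 and the mm10 build. For the aligner, counter, annotation and strand setting, nothing is given in the sources used here. Reads of similar, overlapping or antisense genes may therefore be mixed. A further 3 deposited tables hold comparisons. Per the file headers they hold normalized signal (counts divided by size factors), log2 fold changes, their standard error and test statistic (a score), and p-values. The table named for proliferation holds TNF over proliferation, as its own signal columns show (median absolute difference 0.000963 on the log2 scale, against 0.179 for control over proliferation). These tables served only for comparison.

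Counts were analysed with edgeR 4.0.16, limma 3.58.1 and R 4.3.3. After filterByExpr, which kept 12736 genes, and TMM scaling, a quasi-likelihood model of 4 group means (8 residual degrees of freedom) took in all 12 libraries, contrasts were tested with glmQLFTest, and p-values were adjusted by the Benjamini-Hochberg method over all genes tested. Calls needed an adjusted p below 0.05. SE was computed as the size of the log2 fold change over the root of F. Library totals were 26416978 to 32917763 counts, and a floor of 3 counts was 0.0899 to 0.113 CPM, which covers counting error only. No replicate pair held identical counts, and chi-square per degree of freedom between replicates ran from 1.60 to 21.3. The fit was tested on simulated data. Shares used the exon union of GENCODE M21 (GRCm38), and promoter windows came from RefSeq (GRCm38.p6), which matched all 7 genes. DESeq2 1.42.0 was an alternative. Members, lists and tests were chosen with earlier results of these data known. From each list, up to 4 called genes per comparison were named by the largest absolute log2 fold change, with all members, Fbxl2 and Nfkbia, and the 3 genes with the highest correlation to each member. Values of Myl12a, Myh4, Myh6, Myh7, Myh9 and Myog that missed the threshold were added after their values were seen. So were Myf5 and Rock2 after Fbxl2 siRNA, Mybpc1 and the single fibroblast and skeletal muscle markers.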

Additional observations from a re-analysis of the deposited data

How the results depend on the processing

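Genes and members called stayed within 1.5 times of the reported counts under every alternative run. Members called ranged from 5 to 6 of those tested for control over proliferation, TNF over control and Fbxl2 siRNA over control, and from 4 to 6 in the other 3 comparisons. Of 753 recomputed member fold changes 737 kept their side of the threshold, 9 lost a call, 7 gained it and 0 changed sign. Myl1, Myl4, Myl6b and Myl6 in TNF over Fbxl2 siRNA kept their calls throughout. The fit to only 2 groups gave no value for Myl2 in 3 comparisons, since it fell below the filter.

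Shares moved with the length used. With the longest transcript Myl6 was 83.2% of the essential pool in TNF, 75.4% in Fbxl2 siRNA, 57.6% in control and 94.4% in proliferation. With no length it was 91.0% in TNF, 86.4% in Fbxl2 siRNA, 73.6% in control and 97.7% in proliferation. With the shortest principal transcript, added after seeing the data, it was 92.8% in TNF, 89.1% in Fbxl2 siRNA, 78.2% in control and 98.3% in proliferation. Mylpf, with no length, was 8.52% of the regulatory pool in TNF, 14.9% in Fbxl2 siRNA, 26.7% in control and 1.04% in proliferation. With the principal transcript Mylpf was 9.34% in TNF, 16.1% in Fbxl2 siRNA, 28.7% in control and 1.12% in proliferation. Lengths alone differ between these settings.

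The replicate letters were not taken as pairs, since correlations over all genes of deviations between same-letter libraries ran from -0.0957 to 0.183 and exceeded 0.1 for every letter in no comparison. A library correlated best with its own letter in 12 of 36 cases, each a library set against another group, although A was high and B low for 4 members in every group. With the letter as a replicate block, genes called were 7070 for TNF over control, 8239 for Fbxl2 siRNA over control, 7833 for TNF over Fbxl2 siRNA, 9391 for TNF over proliferation, 8054 for Fbxl2 siRNA over proliferation and 9897 for control over proliferation. Under the block Myl6b in TNF over proliferation (adjusted p = 0.0279) and Myl6 in Fbxl2 siRNA over proliferation (adjusted p = 0.0485) were called higher. With 3 libraries a group, exact permutation tests of shares and ratios could not pass 0.05, and Myl2 and Myl3 are limited by their counts.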
